A study of Mus musculus with 12 samples.

Results

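The genes described here encode the matrix metalloproteinases (Mmp), the secreted ADAMTS proteinases (Adamts), the ADAMTS-like proteins (Adamtsl) and the tissue inhibitors of metalloproteinases (Timp). They were taken by gene symbol from the deposited count table, which gave 51 of its 24964 genes: 23 Mmp, 19 Adamts, 5 Adamtsl and 4 Timp genes. All 51 had at least 1 count, and 45 had enough counts to be tested between groups. RNA came from uterine tissue of pregnant mice at 13.5 days post coitum, in 12 libraries of 4 each from 3 groups. Control mice carried Myh11Cre alone. PGR-A OE mice carried Myh11Cre with LSLPGRA/+ and PGR-B OE mice Myh11Cre with LSLPGRB/+, single-copy alleles for overexpression of progesterone receptor isoform A or B. All groups thus carried the Cre driver, and the controls lacked an overexpression allele. The Myh11 promoter is active in smooth muscle, of blood vessels as well as of the myometrium, which limits the cell types in which the alleles can be switched on. The labels give no strain or age of the mice and do not say whether the replicates were separate animals, so p-values measure only how far these samples differ, which may in part be technical.

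Metalloproteinases of the Mmp family cut collagens, laminins and other proteins of the extracellular matrix, and most are made as inactive precursors. ADAMTS proteinases trim procollagens, cut large proteoglycans such as versican, or act on von Willebrand factor, and ADAMTS-like proteins share their outer domains but lack the catalytic one. TIMPs bind the active site of these enzymes. In the uterus this system takes part in tissue remodelling through the cycle, pregnancy and the return of the organ to its size after birth.

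Total counts ran from 31872534 to 33078483 per library, and the 51 genes together took 0.303% to 0.419% of them. Levels are in CPM, a gene's counts relative to the library total after scaling for composition. The receptor gene Pgr was at 106.1 to 142 CPM in controls, 166 to 255 CPM in PGR-A OE and 188 to 248 CPM in PGR-B OE libraries. All 8 smooth muscle markers examined were above 1 CPM on average, and their summed level was 12088 to 15913 CPM in controls, 16312 to 22429 CPM in PGR-A OE and 11734 to 15539 CPM in PGR-B OE. The summed markers of decidua, the lining that forms in pregnancy, varied most, mainly through the decidual prolactin Prl8a2. It was at 5054 CPM in control replicate 4 and 5.02 CPM in PGR-A OE replicate 4, while the other 10 libraries held 173.6 to 1278 CPM. Of the other decidua markers, Cryab and Prl3c1 were also highest in control replicate 4, at 125 and 1.76 CPM. Bmp2 (4.44 to 8.61 CPM in all libraries) and Wnt4 were not, and Wnt4 was highest in PGR-A OE replicate 4, at 9.61 CPM. Of 6 trophoblast markers 2 had no count, and the summed level of the list was at most 14.3 CPM. PGR-A OE replicate 4 lay farthest from the rest, at 62.4 on the first principal component (22.95% of the variance), followed by control replicate 4 at -31.0, and values without them are given beside the results they move most. In bulk tissue, fewer cells of a type and less RNA per cell cannot be told apart.

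Adamts3, which trims procollagen, was the 1 gene of the family to pass the test in any comparison, and it was lower in PGR-B OE than in control. In PGR-A OE against control 0 of the 45 tested genes passed, and the membrane-type proteinase gene Mmp17 (0.62) and the proteoglycan-cleaving Adamts9 (-0.41) had the lowest adjusted p, 0.0967 and 0.114. Between the overexpression groups 0 passed as well, and Adamts3, Adamts19, Adamts6 and Mmp7 were the genes whose libraries did not overlap. These were 8.89% of the 45, beside 3.85% of all genes tested. The inhibitors Timp1, Timp2 and Timp3 did not pass in any comparison. Genes were tested with the quasi-likelihood method of edgeR, p-values were adjusted by Benjamini-Hochberg over 15561 genes, and the threshold was 0.05. All differences below are on the log2 scale, the first group named minus the second.

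Timp2, Mmp14 and Mmp2, in this order, had the highest mean levels per length in each of the 3 groups. Per kilobase of gene length, Timp2 was the highest in control, at 172 CPM per kb, followed by Mmp14 at 93.96, Mmp2 at 78.7, Adamts1 at 66.5 and Mmp23 at 61.7 CPM per kb. Timp3 (47.04), Adamts2 (38.9), Adamts9 (37.3) and Timp1 (30.9 CPM per kb) came next. The control libraries of Mmp14 and Mmp2, of Mmp2 and Adamts1, and of Adamts1 and Mmp23 overlapped on this scale, so the order of these neighbours is not settled beyond their spread, while all 4 Timp2 values lay above those of Mmp14. At the other end, Mmp1a and Mmp1b, the mouse interstitial collagenase genes, had 1 count each over all 12 libraries. Mmp21 had 2 counts, Mmp20, the tooth enamel proteinase, had 6, Timp4 had 44 and Mmp24 had 63, and these 6 genes were not tested. Averaged over the 12 libraries, 38 of the 51 genes reached 1 CPM.

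**Figure D1:**
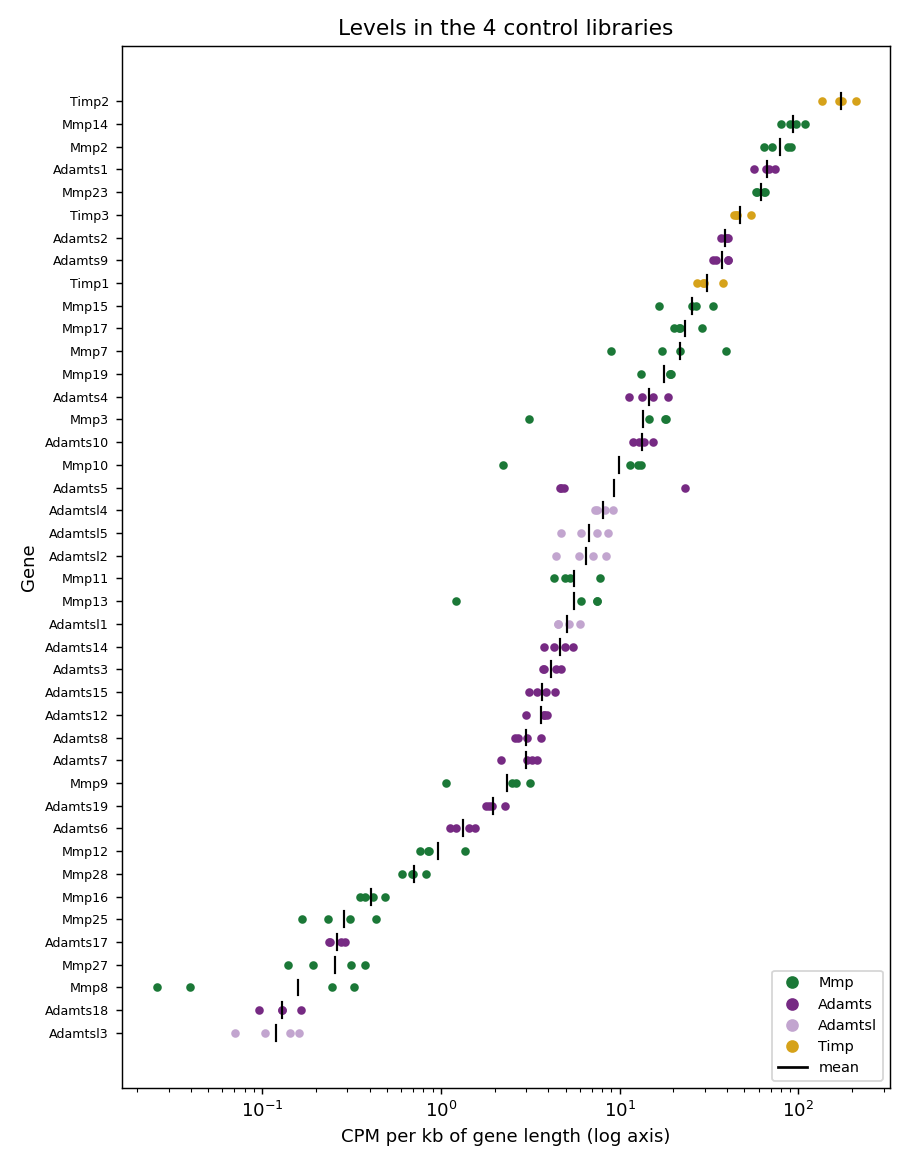
Levels of the family in the 4 control libraries, in CPM per kb of gene length on a log axis, for genes with a control mean above 0.1 CPM per kb; each dot is a library, the short line is the mean and the colour gives the gene family. Timp2, Mmp14 and Mmp2 lead, and Mmp3, Mmp10, Mmp13 and Adamts5 each have 1 control library, replicate 4, far from the other 3.

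The procollagen N-proteinases Adamts2, Adamts3 and Adamts14 remove the amino-terminal propeptide of fibrillar procollagens. Adamts3 (chromosome 5, 89677087 to 89883334, GRCm38, minus strand), which is also known to process the lymphatic growth factor VEGF-C, was at 35.9, 28.8, 33.7 and 28.4 CPM in control replicates 1 to 4, 31.9, 27.7, 28.9 and 36.4 CPM in PGR-A OE replicates 1 to 4, and 22.9, 21.6, 20.9 and 21.1 CPM in PGR-B OE replicates 1 to 4. All 4 PGR-B OE libraries lay below all 8 others, and the control and PGR-A OE libraries overlapped fully. The mean was 31.7 ± 3.68 CPM in control, 31.3 ± 3.87 CPM in PGR-A OE and 21.6 ± 0.8805 CPM in PGR-B OE (SD, n = 4). Adamts3 fell in PGR-B OE against control by 0.55 on the log2 scale (SE 0.10, 95% interval -0.77 to -0.33, adjusted p = 0.0439 by edgeR), or by 31.8%. It was the 1 of 45 tested genes called lower, where 0.0257% of all genes tested were called lower and 0.308% called in either direction. No exon of another annotated gene overlaps it.

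The Adamts3 call lay close to the threshold. It was lost by limma voom (adjusted p = 0.0587), in an edgeR fit of the 8 libraries compared (0.0514) and with the replicate number as a block (0.0955), while DESeq2 gave 0.000318. It was kept in 3 of the 12 fits that left out a library: without control replicate 4 (adjusted p = 0.0406), PGR-A OE replicate 2 (0.0499) and PGR-A OE replicate 4 (0.0164), by edgeR. In the other 9 the adjusted p ran from 0.0595 without PGR-A OE replicate 3 to 0.1475 without control replicate 1. It was 0.0698, 0.135, 0.0743, 0.105, 0.0959, 0.0985 and 0.135 without control replicates 2 and 3, PGR-A OE replicate 1 and PGR-B OE replicates 1, 2, 3 and 4, in that order. The difference itself stayed between -0.60 and -0.48 in these fits. With both control replicate 4 and PGR-A OE replicate 4 left out it was -0.60 (adjusted p = 0.0137). Against PGR-A OE the difference was -0.53 (SE 0.10, adjusted p = 0.0941) by edgeR, with no overlap between libraries. In PGR-A OE against control it was -0.020 (95% interval -0.24 to 0.20, adjusted p = 0.948). Of the 8 smooth muscle markers 1 had a higher fitted level in PGR-B OE than in control and the others a lower one, as Adamts3 did, with 0 at an unadjusted p under 0.05. Against PGR-A OE all 8 had a lower fitted level in PGR-B OE, 6 at an unadjusted p under 0.05. Their part in the Adamts3 result was not tested.

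Adamts2 (chromosome 11, 50602084 to 50807573), the most abundant N-proteinase gene, was at 289, 282, 293 and 267 CPM in control replicates 1 to 4, 329, 318, 331 and 446 CPM in PGR-A OE replicates 1 to 4, and 317, 273, 367 and 351 CPM in PGR-B OE replicates 1 to 4. PGR-A OE libraries all lay above the controls, and PGR-A OE replicate 4 was far above the other 3. The difference was 0.33 (SE 0.12, adjusted p = 0.218) by edgeR and did not pass, and it was 0.21 without PGR-A OE replicate 4. In PGR-B OE against control it was 0.21 (SE 0.12, adjusted p = 0.624). Adamts14 (chromosome 10, 61197112 to 61273438) overlapped between groups, at 24.1 ± 3.92 CPM in control, 30.1 ± 11.6 CPM in PGR-A OE, where replicate 4 held 47.1 CPM, and 26.3 ± 5.91 CPM in PGR-B OE. Its differences were 0.32 and 0.13 in PGR-A OE and PGR-B OE against control (adjusted p = 0.539 and 0.9101 by edgeR), and the first was 0.019 without PGR-A OE replicate 4.

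**Figure D2:**
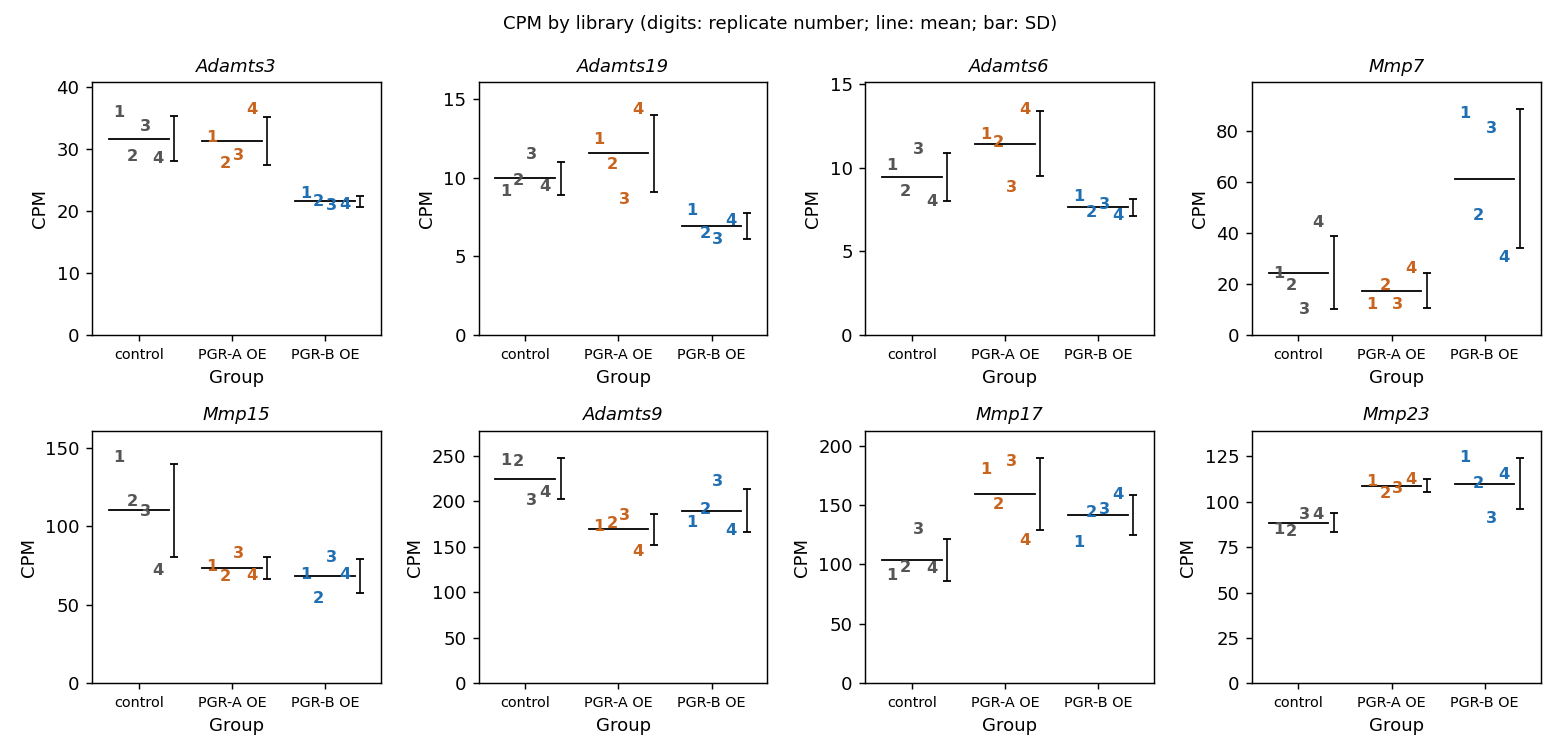
CPM by library for 8 genes in the 3 groups, on linear axes that start at 0; digits are replicate numbers, lines are means and bars are SD over 4 libraries. In Adamts3 the 4 PGR-B OE libraries lie at 20.9 to 22.9 CPM, under the 27.7 to 36.4 CPM of the other 8, and in Mmp15 control replicate 4 lies among the overexpression libraries.

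Genes on the path of the procollagen substrates, from a list of 11 of which 9 were tested, gave 0 calls in any comparison. Col1a1, Col1a2 and Col3a1, the chains of fibrillar collagens I and III, did not overlap between control and either overexpression group. Of all genes tested, 10.6% did not overlap in PGR-A OE and 5.67% in PGR-B OE against control. Col1a1 was at 11649 ± 599.9 and 15305 ± 1432 CPM (0.39, adjusted p = 0.147) in control and PGR-A OE, by edgeR, and at 15891 ± 1585 CPM in PGR-B OE (0.45, adjusted p = 0.198). Col3a1 was at 10529 ± 130.4 and 12891 ± 1159 CPM (0.29, adjusted p = 0.251) in control and PGR-A OE and at 13739 ± 1424 CPM in PGR-B OE (0.38, adjusted p = 0.282). Pcolce2, with the lowest p of the list in PGR-A OE after Col1a1, was at 2.07 ± 0.930 and 4.60 ± 2.32 CPM in control and PGR-A OE. Its difference was 1.15 (adjusted p = 0.161 by edgeR), with overlap. Of the 9 genes, 6 had an unadjusted p under 0.05 in PGR-A OE and 4 in PGR-B OE, against 15.4% and 9.28% of all genes tested. Among genes tied to VEGF-C processing and to Reelin, a brain matrix protein that Adamts3 cuts, 0 of 4 passed. Vegfc was at 3.13 ± 0.616 and 4.63 ± 1.31 CPM (0.57, adjusted p = 0.455) in control and PGR-B OE, Flt4, which encodes its receptor, at 66.97 ± 7.79 and 52.4 ± 6.79 CPM (-0.35, adjusted p = 0.274), and Reln at 21.5 ± 5.95 and 13.2 ± 2.499 CPM (-0.70, adjusted p = 0.322), by edgeR. Ccbe1, whose product aids VEGF-C processing, was at 24.4 ± 2.32 and 24.8 ± 3.37 CPM (0.024, adjusted p = 0.981) in the same groups. In PGR-A OE Vegfc was at 4.796 ± 0.759 CPM, with no overlap with control (0.62, adjusted p = 0.214 by edgeR). The part of Adamts3 in the values of these genes was not tested.

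The proteoglycanases cut versican, aggrecan and related proteoglycans. Adamts9 (chromosome 6, 92772699 to 92943492) was at 245, 244, 201 and 210.1 CPM in control replicates 1 to 4, 173, 176, 185 and 145 CPM in PGR-A OE replicates 1 to 4, and 177, 191, 222 and 168 CPM in PGR-B OE replicates 1 to 4. All PGR-A OE libraries were below all controls, and the PGR-B OE libraries overlapped the controls. The difference was -0.41 (SE 0.11, adjusted p = 0.114) in PGR-A OE and -0.25 (SE 0.11, adjusted p = 0.509) in PGR-B OE, by edgeR, and neither passed, while DESeq2 called the first (adjusted p = 0.0198). Exons of 2 gene models on the opposite strand overlap Adamts9, and the use of strand in counting is not given in the sources used here, so its counts are uncertain. Adamts1 (chromosome 16, 85793827 to 85803113), a progesterone-regulated gene of the ovary, overlapped between groups, at 325 ± 36.98, 347 ± 61.2 and 332 ± 14.04 CPM in control and then PGR-A OE and PGR-B OE (SD, n = 4).

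Adamts5 (chromosome 16, 85856173 to 85901828), the neighbour of Adamts1 on chromosome 16, was at 37.9, 39.8, 37.9 and 188 CPM in control replicates 1 to 4, 80.2, 70.6, 22.99 and 31.8 CPM in PGR-A OE replicates 1 to 4, and 40.1, 45.8, 48.3 and 55.9 CPM in PGR-B OE replicates 1 to 4. Control replicate 4, the library with the highest Prl8a2, held more than 4 times the level of any other control, and the next highest values were in PGR-A OE replicates 1 and 2. The part of decidual RNA in this was not tested. The Adamts5 difference was -0.56 (SE 0.54, adjusted p = 0.647) in PGR-A OE and -0.67 (SE 0.54, adjusted p = 0.766) in PGR-B OE against control, by edgeR. Without control replicate 4 both changed sign, to 0.42 (adjusted p = 0.584) and 0.30 (adjusted p = 0.812), and neither passed. Adamts4 overlapped between all groups, at 92.8 ± 20.03, 79.5 ± 30.6 and 74.95 ± 14.2 CPM in control and then PGR-A OE and PGR-B OE. Adamts15 was highest in PGR-A OE replicate 4, at 53.4 CPM, while the other 11 libraries held 16.8 to 34.9 CPM. Adamts8, its neighbour on chromosome 9, was at 15.1 ± 1.87 CPM in PGR-A OE and 11.5 ± 1.59 CPM in PGR-B OE, a difference of -0.39 (SE 0.14, adjusted p = 0.487) by edgeR. Adamts20 stayed under 0.6 CPM in every library. Of 6 genes that encode proteoglycan substrates or their link proteins, 5 were tested and 0 had an unadjusted p under 0.05 in any comparison.

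Among the remaining Adamts genes, 2 had libraries that did not overlap between the overexpression groups, where 3.85% of all genes tested did not. Adamts19 (chromosome 18, 58836667 to 59054060), an ADAMTS without a well-defined substrate, was at 9.12, 9.83, 11.5 and 9.44 CPM in control replicates 1 to 4, 12.4, 10.9, 8.61 and 14.4 CPM in PGR-A OE replicates 1 to 4, and 7.91, 6.45, 6.06 and 7.31 CPM in PGR-B OE replicates 1 to 4. The PGR-B OE libraries lay below all controls and all PGR-A OE libraries. The difference was -0.74 (SE 0.15, adjusted p = 0.1503) against PGR-A OE and -0.53 (SE 0.15, adjusted p = 0.279) against control, by edgeR, and DESeq2 called the first (adjusted p = 0.00314). Adamts6 (chromosome 13, 104287835 to 104496695), a close relative of Adamts10, was at 10.2, 8.59, 11.1 and 7.98 CPM in control replicates 1 to 4, 11.97, 11.5, 8.80 and 13.5 CPM in PGR-A OE replicates 1 to 4, and 8.29, 7.34, 7.798 and 7.13 CPM in PGR-B OE replicates 1 to 4. Its difference was -0.58 (SE 0.14, adjusted p = 0.246) against PGR-A OE, which DESeq2 called (adjusted p = 0.0278), and -0.31 (SE 0.14, adjusted p = 0.541) against control, by edgeR.

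Adamts17 (chromosome 7, 66839735 to 67153171), a gene linked to fibrillin matrix and to eye and skeletal growth, was at 1.45, 1.75, 1.67 and 1.43 CPM in control replicates 1 to 4, 3.47, 3.07, 1.96 and 3.52 CPM in PGR-A OE replicates 1 to 4, and 6.34, 3.03, 2.09 and 2.17 CPM in PGR-B OE replicates 1 to 4. All libraries of both overexpression groups exceeded all controls, and PGR-B OE replicate 1 was the highest. The difference was 0.93 (SE 0.34, adjusted p = 0.223) in PGR-A OE and 1.11 (SE 0.34, adjusted p = 0.307) in PGR-B OE, by edgeR, and the latter was 0.63 without PGR-B OE replicate 1. The 2 comparisons share the control libraries. Adamts10, a fibrillin-linked gene, was at 58.6 ± 6.51, 71.8 ± 6.31 and 70.3 ± 16.2 CPM in control and then PGR-A OE and PGR-B OE. Adamts12 and Adamts7, which cut cartilage oligomeric matrix protein, were between 24.4 and 35.9 CPM and between 11.8 and 26.9 CPM in all libraries. Adamts13, the proteinase of von Willebrand factor, Adamts16 and Adamts18 were at a mean of under 0.8 CPM in each group. Adamts16 gave a difference of 1.21 (SE 0.45, adjusted p = 0.441) in PGR-B OE against control, from 34 counts in the 4 control and 80 in the 4 PGR-B OE libraries, by edgeR.

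**Figure D3:**
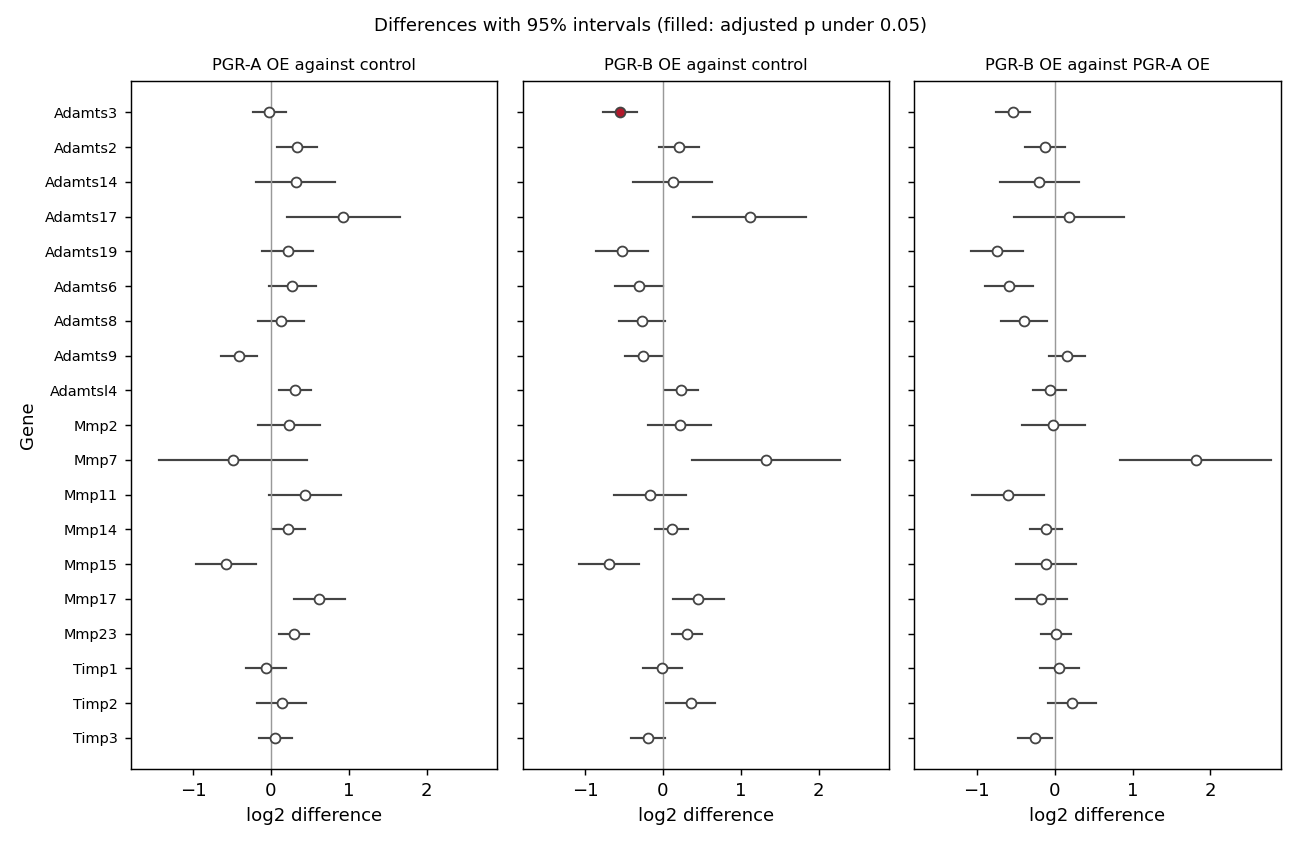
Log2 differences of 19 genes in the 3 comparisons, with 95% intervals from edgeR's fit of all 12 libraries; a filled point has an adjusted p under 0.05. Adamts3 in PGR-B OE against control is the 1 filled point, and Mmp7 has the widest intervals.

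The ADAMTS-like genes encode matrix proteins without proteinase activity, and Adamtsl2 and Adamtsl4 are known partners of fibrillin microfibrils. Adamtsl4 (chromosome 3, 95676201 to 95687917) was at 29.6, 33.6, 37.2 and 30.02 CPM in control replicates 1 to 4, 38.1, 35.2, 41.2 and 46.6 CPM in PGR-A OE replicates 1 to 4, and 39.02, 37.9, 37.3 and 39.8 CPM in PGR-B OE replicates 1 to 4. PGR-B OE libraries lay just above the highest control, and in PGR-A OE replicate 2 fell among the controls. The difference was 0.31 (SE 0.10, adjusted p = 0.168) in PGR-A OE and 0.24 (SE 0.10, adjusted p = 0.467) in PGR-B OE, by edgeR. Adamtsl2 was at 23.4 ± 6.16, 22.6 ± 4.82 and 17.3 ± 3.47 CPM in control and then PGR-A OE and PGR-B OE, and Adamtsl1 and Adamtsl5 overlapped between all groups. Adamtsl3 was at 0.516 to 2.14 CPM in all libraries, with a difference of 0.78 (SE 0.35, adjusted p = 0.525) in PGR-B OE against control by edgeR. In a list of 8 fibrillin-linked genes 0 passed in any comparison. Ltbp1, a latent TGF-beta binding protein gene, was at 70.3 ± 15.5 and 49.2 ± 2.49 CPM (-0.51, adjusted p = 0.206) in control and PGR-B OE with no overlap, by edgeR, and the fitted difference between PGR-B OE and PGR-A OE was negative in all 8 genes. Of these, 3 had an unadjusted p under 0.05, a level reached by 8.04% of all genes, and 51.2% of all genes had a positive difference. Ltbp2, of the same family, was at 31.1 ± 13.8 and 77.7 ± 32.1 CPM (1.32, adjusted p = 0.1097) in control and PGR-A OE, with overlap, and at 37.4 ± 5.54 CPM in PGR-B OE.

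Membrane-type Mmps are held at the cell surface, where Mmp14 activates the Mmp2 precursor together with Timp2. Mmp17 (chromosome 5, 129584169 to 129611099), which is anchored by a lipid, was at 90.7, 97.05, 129 and 96.5 CPM in control replicates 1 to 4, 180.2, 151, 186 and 120.4 CPM in PGR-A OE replicates 1 to 4, and 118, 144, 146 and 159 CPM in PGR-B OE replicates 1 to 4. In PGR-A OE 3 libraries exceeded all controls and replicate 4 lay below the highest control, replicate 3. The difference was 0.62 (SE 0.15, adjusted p = 0.0967) by edgeR. It passed with PGR-A OE replicate 4 left out (0.74, adjusted p = 0.0329) and by DESeq2 (0.62, adjusted p = 0.00761). It did not pass with both control replicate 4 and PGR-A OE replicate 4 left out (0.70, adjusted p = 0.0622). Of the 8 edgeR fits without a library of this comparison it passed in 1, with an adjusted p of up to 0.282 in the others. In PGR-B OE it was 0.45 (SE 0.15, adjusted p = 0.376). The smooth muscle markers, summed, were higher in all PGR-A OE libraries than in any control. PGR-A OE replicate 4, the library farthest out on the first principal component, had the most of them, at 22429 CPM, and the lowest Mmp17 of its group. The summed level of 5 fibroblast markers was 2323 to 2803 CPM in controls and 2624 to 3779 CPM in PGR-A OE. Of the 5, 3 had a higher fitted level in PGR-A OE than in control, and the others had a lower one. By edgeR 1 was called higher and 0 lower, where 0.655% of all genes tested were called. The part of the smooth muscle and fibroblast markers in the Mmp17 and other PGR-A OE differences was not tested.

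Mmp15 (chromosome 8, 95352268 to 95375080), a membrane-type proteinase found mainly in epithelia, was at 144, 116, 109 and 71.7 CPM in control replicates 1 to 4, 74.5, 68.3, 83.02 and 68.8 CPM in PGR-A OE replicates 1 to 4, and 69.3, 54.1, 80.5 and 69.3 CPM in PGR-B OE replicates 1 to 4. Control replicate 4 lay within the range of the overexpression libraries, and control replicates 1 to 3 lay above all of them. The difference was -0.58 (SE 0.18, adjusted p = 0.161) in PGR-A OE and -0.69 (SE 0.18, adjusted p = 0.198) in PGR-B OE, by edgeR, and neither passed. Without control replicate 4 both did, at -0.74 (adjusted p = 0.03797) and -0.85 (adjusted p = 0.0236), and DESeq2 on all 12 libraries called both (adjusted p = 0.0481 and 0.0252). Each passed in that 1 alone of the 8 edgeR fits without a library of its comparison. In the others the adjusted p reached 0.4045 and 0.481. The summed level of 6 epithelial markers was 1096 to 1655 CPM in controls, 1065 to 1327 CPM in PGR-A OE and 1094 to 1700 CPM in PGR-B OE. Of the 6, 1 (Foxa2) had a higher fitted level in each overexpression group than in control, and the others had a lower one, as Mmp15 did. Of these markers, 1 had an unadjusted p under 0.05 in PGR-A OE and 0 in PGR-B OE against control, counted in either direction. Their part in the Mmp15 values was not tested.

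Mmp14 (chromosome 14, 54431612 to 54445364) was at 340.5, 306, 415 and 367 CPM in control replicates 1 to 4, 453, 381, 398 and 439 CPM in PGR-A OE replicates 1 to 4, and 384, 387, 365 and 411 CPM in PGR-B OE replicates 1 to 4. Its difference was 0.23 (SE 0.10, adjusted p = 0.295) in PGR-A OE and 0.12 (SE 0.10, adjusted p = 0.78) in PGR-B OE against control, by edgeR, and the groups overlapped. The latter ran from 0.051 without control replicate 2 to 0.20 without control replicate 3. Mmp2 (chromosome 8, 92827291 to 92853420), gelatinase A, was at 271, 198, 279 and 218 CPM in control replicates 1 to 4, 337, 267, 259 and 273 CPM in PGR-A OE replicates 1 to 4, and 410.3, 231, 229 and 253 CPM in PGR-B OE replicates 1 to 4. PGR-B OE replicate 1 stood apart from the other 3 libraries of its group, and the difference in PGR-B OE was 0.22 (SE 0.19, adjusted p = 0.787) with it and -0.023 without it, by edgeR. It was 0.14 without control replicate 2. In PGR-A OE the Mmp2 difference was 0.23 (SE 0.19, adjusted p = 0.579), with 0.14 without PGR-A OE replicate 1 and 0.15 without control replicate 2. Mmp9, gelatinase B, which neutrophils and macrophages make in quantity, was at 7.45 ± 2.85, 7.03 ± 2.17 and 6.06 ± 2.41 CPM in control and then PGR-A OE and PGR-B OE, with overlap. Mmp16 and Mmp25 were at 1.52 to 3.44 CPM and 0.606 to 1.58 CPM in all libraries.

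No inhibitor gene passed the test. Timp2 (chromosome 11, 118301069 to 118355740) was at 634, 614, 757 and 494 CPM in control replicates 1 to 4, 623, 578, 677 and 871 CPM in PGR-A OE replicates 1 to 4, and 772, 743, 844 and 843 CPM in PGR-B OE replicates 1 to 4. Of the PGR-B OE libraries 3 exceeded all controls, and replicate 2 lay below control replicate 3. The difference was 0.36 (SE 0.14, adjusted p = 0.471) in PGR-B OE and 0.14 (SE 0.14, adjusted p = 0.687) in PGR-A OE, by edgeR, and the latter was 0.0022 without PGR-A OE replicate 4. Timp3 (chromosome 10, 86300372 to 86349506), which binds to the matrix, was at 220.2 ± 22.3, 229 ± 28.02 and 193 ± 14.1 CPM in control and then PGR-A OE and PGR-B OE, and its difference between the overexpression groups was -0.25 (SE 0.10, adjusted p = 0.558) by edgeR. An exon of Syn3 on the opposite strand overlaps Timp3, and Timp1 lies in an intron of Syn1. Timp1 (chromosome X, 20870166 to 20874735) was at 27.5 ± 4.29, 26.3 ± 2.59 and 27.4 ± 3.05 CPM. Its 95% intervals were -0.32 to 0.19 in PGR-A OE and -0.26 to 0.25 in PGR-B OE against control. Of 15 activators and regulators, among them plasminogen activators, furin-type convertases and Reck, 14 were tested and 0 passed in any comparison, with Pcsk6 at 528 ± 76.1 and 361 ± 80.2 CPM (-0.55, adjusted p = 0.459) in control and PGR-B OE by edgeR.

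On chromosome 9, 10 Mmp genes lie within 427 kb, from 7272514 to 7699585: Mmp13, Mmp12, Mmp1b, Mmp3, Mmp1a, Mmp10, Mmp8, Mmp27, Mmp20 and Mmp7. The stromelysins Mmp3 and Mmp10 and the collagenase Mmp13 ranged widely between libraries, except for Mmp3 in PGR-B OE. Promoters of this cluster are shown because a letter pattern sets them apart from the other members. TGANTCA is the pattern bound by AP-1, the Fos and Jun family of transcription factors, and it reads as the same pattern on both strands. It was found in the 250 bases before a start site in 8 of the 10 cluster genes, and in 0 of the other 26 members with a promoter in the RefSeq table (GRCm38.p6), which covered 36 of the 51 genes. Of all 32851 promoter windows of that length, 6.75% held it. This share is per window, while a gene was counted if any of its windows held the pattern. The 8 genes include Mmp1a, Mmp1b and Mmp20, with 1, 1 and 6 counts over all libraries. The 100 bases before the start are given 5′ to 3′ on the plus strand with TGANTCA in capitals, for the cluster genes above 10 CPM on average.
Mmp3, chr9:7445722-7445821: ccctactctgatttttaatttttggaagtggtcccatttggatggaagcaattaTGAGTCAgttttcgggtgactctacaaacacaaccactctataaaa
Mmp10, chr9:7502242-7502341: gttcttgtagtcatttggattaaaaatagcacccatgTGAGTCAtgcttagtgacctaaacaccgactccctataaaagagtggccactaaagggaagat
Mmp13, chr9:7272414-7272513: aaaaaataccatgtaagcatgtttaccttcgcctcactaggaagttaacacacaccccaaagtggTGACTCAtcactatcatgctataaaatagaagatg
Mmp7, chr9:7691990-7692089: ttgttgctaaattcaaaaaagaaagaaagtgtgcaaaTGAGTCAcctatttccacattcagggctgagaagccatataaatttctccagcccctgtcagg
The pattern begins at -46, -63, -35 and -63 from the start in this order. A match is a description of the letters and not a measured site. For Mmp7 a second listed start lies downstream, and the 100 bases before that one hold no match.

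Mmp3 was at 32.4, 26.2, 32.8 and 5.63 CPM in control replicates 1 to 4, 46.5, 17.3, 10.2 and 29.9 CPM in PGR-A OE replicates 1 to 4, and 14.5, 19.3, 15.8 and 16.9 CPM in PGR-B OE replicates 1 to 4. Mmp10 was at 22.1, 19.8, 22.9 and 3.87 CPM in control replicates 1 to 4, 23.7, 6.88, 5.91 and 10.4 CPM in PGR-A OE replicates 1 to 4, and 6.61, 1.91, 13.8 and 11.2 CPM in PGR-B OE replicates 1 to 4. Mmp13 was at 16.3, 20.1, 19.9 and 3.25 CPM in control replicates 1 to 4, 23.97, 6.79, 8.86 and 12.7 CPM in PGR-A OE replicates 1 to 4, and 5.46, 1.28, 13.8 and 13.01 CPM in PGR-B OE replicates 1 to 4. In each of the 3 genes control replicate 4 was the lowest control and PGR-A OE replicate 1 the highest of all 12 libraries. PGR-B OE replicate 2 was the lowest of the 12 for Mmp10 and Mmp13 but not for Mmp3. The differences against control were 0.10, -0.54 and -0.18 in PGR-A OE for Mmp3, Mmp10 and Mmp13, and -0.55, -1.04 and -0.83 in PGR-B OE. The SE of these differences was 0.49 to 0.66, and the adjusted p was at least 0.659 by edgeR. Without control replicate 4 they were -0.23, -0.88 and -0.52 in PGR-A OE and -0.88, -1.37 and -1.16 in PGR-B OE, with an adjusted p of at least 0.4465, so that Mmp3 changed sign in PGR-A OE. The SE was 0.38 to 0.61 without that library. The groups overlapped in all 3 genes, and none of these differences passed the test with or without control replicate 4.

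**Figure D4:**
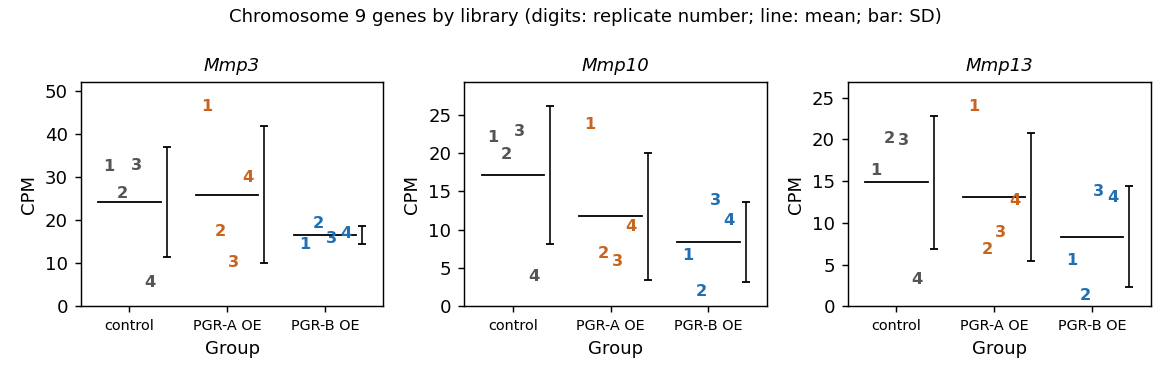
CPM by library for Mmp3, Mmp10 and Mmp13 in the 3 groups, on linear axes that start at 0; digits are replicate numbers, lines are means and bars are SD over 4 libraries. Control replicate 4 is lowest among the controls and PGR-A OE replicate 1 is highest of all libraries in each panel.

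Mmp7 (chromosome 9, 7692090 to 7699585), matrilysin, a product of gland epithelium, was at 24.2, 19.4, 9.94 and 44.1 CPM in control replicates 1 to 4, 12.1, 19.5, 12.01 and 26.1 CPM in PGR-A OE replicates 1 to 4, and 86.8, 46.8, 80.9 and 30.3 CPM in PGR-B OE replicates 1 to 4. All PGR-B OE libraries exceeded all PGR-A OE libraries, while control replicate 4 exceeded PGR-B OE replicate 4. The difference was 1.81 (SE 0.45, adjusted p = 0.257) against PGR-A OE and 1.33 (SE 0.44, adjusted p = 0.376) against control, by edgeR, and DESeq2 called the first (adjusted p = 0.0328). In PGR-A OE against control it was -0.49 (SE 0.44, adjusted p = 0.625). The summed epithelial markers overlapped between the groups, as given for Mmp15. Of the 6, 5 had a higher fitted level in PGR-B OE than in PGR-A OE, and Foxa2 had a lower one. An unadjusted p under 0.05, counted in either direction, was reached by 1 of the 6. Foxa2, a gland marker, was highest in PGR-A OE replicate 4, with 5.49 CPM, and the other libraries held 0.387 to 1.05 CPM. Epcam and Cdh1, of the same list, were lowest in that library, at 202 and 187 CPM, and Krt8, Krt18 and Krt19 were neither highest nor lowest in it. The part of epithelial RNA in the Mmp7 values was not tested. An exon of AV064505 on the opposite strand overlaps Mmp7. Mmp12, the macrophage elastase gene, was at 1.29 to 6.03 CPM in all libraries and highest in PGR-A OE replicate 1. Mmp8, the neutrophil collagenase gene, was at 1.58 CPM in PGR-B OE replicate 3 and at most 0.804 CPM in the other libraries. The neutrophil markers, summed, were at 10.9 CPM in that library, their highest, and S100a8 (7.93 CPM) and S100a9 (2.71 CPM) made up most of this. Ly6g, Retnlg, Camp and Ngp were at 0.0644, 0.0322, 0.129 and 0 CPM in it and were highest in other libraries. The part of neutrophil RNA in the Mmp8 value was not tested. Mmp27 was under 1 CPM in every library.

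Among the other Mmps, Mmp23 (chromosome 4, 155650655 to 155653384), a membrane-bound proteinase known from reproductive tissues, was at 84.7, 83.5, 92.7 and 93.1 CPM in control replicates 1 to 4, 111, 104, 107 and 112 CPM in PGR-A OE replicates 1 to 4, and 124, 110.0, 90.5 and 115 CPM in PGR-B OE replicates 1 to 4. All PGR-A OE libraries exceeded all controls, and in PGR-B OE replicate 3 fell among the controls. The difference was 0.30 (SE 0.088, adjusted p = 0.147) in PGR-A OE and 0.31 (SE 0.088, adjusted p = 0.251) in PGR-B OE, by edgeR. DESeq2 called the first (adjusted p = 0.04198), and the second passed without PGR-B OE replicate 3 (0.40, adjusted p = 0.0419). The second passed in that 1 alone of the 8 edgeR fits without a library of its comparison, and the adjusted p reached 0.616 in the others. Mmp19 was highest in PGR-A OE replicate 4, at 100.1 CPM, while the other 11 libraries held 45.6 to 77.4 CPM. Mmp11, stromelysin 3, was at 12.7 ± 3.49, 17.2 ± 4.48 and 11.4 ± 1.87 CPM in control and then PGR-A OE and PGR-B OE, with a difference of -0.60 (SE 0.21, adjusted p = 0.505) between the overexpression groups by edgeR. Mmp28 was at 1.805 to 3.76 CPM in all libraries. Exons of other genes on the opposite strand overlap Mmp19, Mmp11 and Mmp28.

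**Figure D5:**
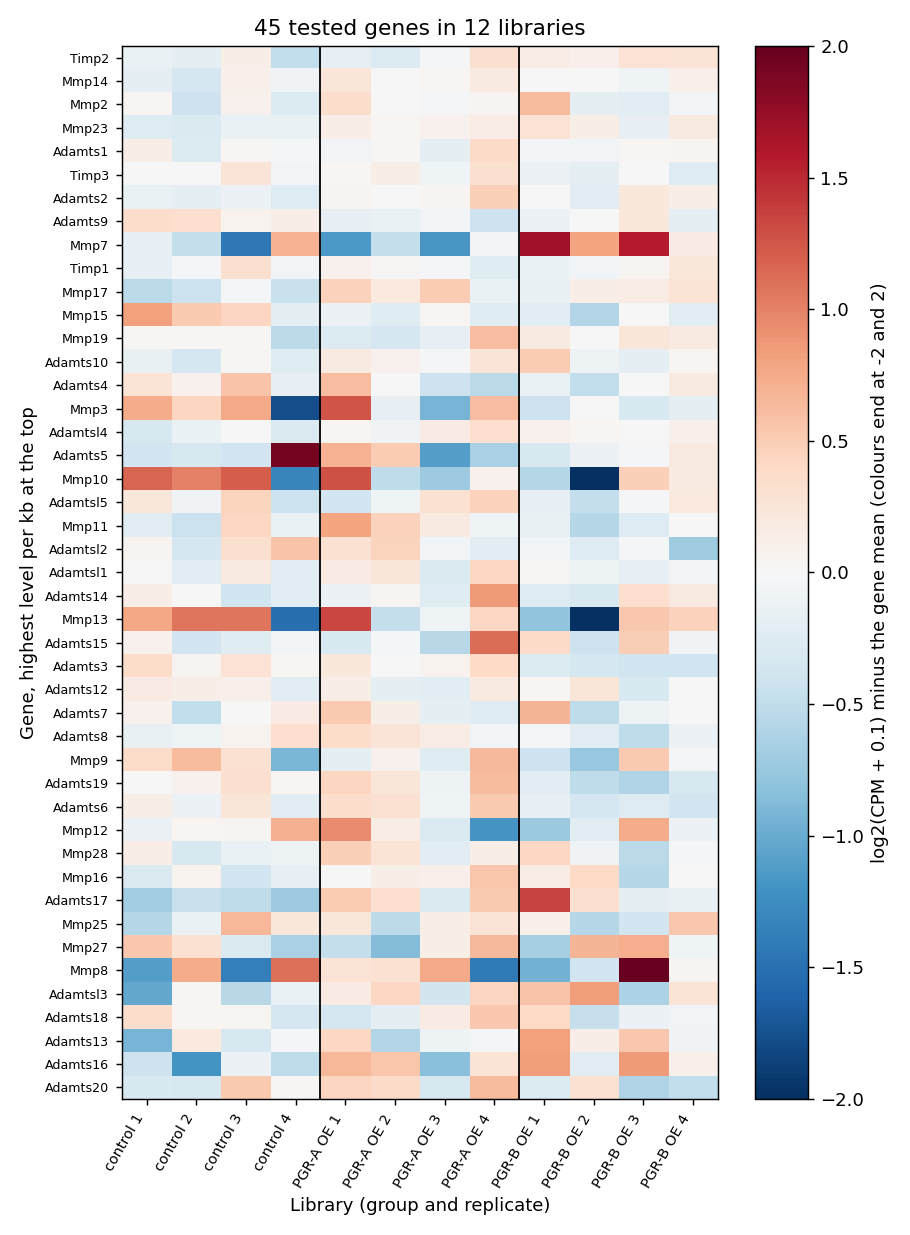
Values of the 45 tested genes in the 12 libraries, as log2(CPM + 0.1) minus the mean of the gene, ordered by level per kb, with colours that end at -2 and 2. The strongest colours fall on Mmp13, Mmp10, Mmp8, Adamts5, Mmp3 and Mmp7; for Adamts5 they mark control replicate 4.

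Counted over the family, the shares past each rule were read beside those of all genes tested. In PGR-A OE against control 0 of 45 passed, where 0.655% of all genes did, and 8 had an unadjusted p under 0.05 (Adamts2, Mmp14, Adamtsl4, Mmp23, Mmp17 and Adamts17 higher, Adamts9 and Mmp15 lower), which is 17.8% beside 15.4%. DESeq2 called 4 of them, Mmp17 and Mmp23 higher and Adamts9 and Mmp15 lower, among 575 genes it called in all, where edgeR called 102. Libraries did not overlap in 4 genes, or 8.89%, beside 10.6% of all genes. In PGR-B OE against control 12 had an unadjusted p under 0.05, or 26.7% beside 9.28%, and 4 did not overlap, or 8.89% beside 5.67%. DESeq2 called Adamts3 and Mmp15 lower, among 216 genes it called in all, where edgeR called 48. Between PGR-B OE and PGR-A OE 0 passed, where 0.116% of all genes did, 7 had an unadjusted p under 0.05, or 15.6% beside 8.04%, and 4 did not overlap, or 8.89% beside 3.85%. DESeq2 called Adamts3, Adamts6 and Adamts19 lower and Mmp7 higher, among 125 genes it called in all, where edgeR called 18. By limma voom 0 of the 45 were called in each comparison. The median difference of the 45 genes was 0.12, -0.0053 and -0.11 in the 3 comparisons, beside 0.0005, -0.0052 and 0.0045 for all genes. Without PGR-A OE replicate 4 the median of the family was 0.058 in PGR-A OE against control and -0.033 between the overexpression groups. Without control replicate 4 it was 0.19 in PGR-A OE and 0.030 in PGR-B OE against control. The fitted difference was above 0 in 29, 22 and 14 of the 45 genes in this order, beside 50.1%, 48.8% and 51.2% of all genes. Of the 11 relatives of the ADAM family and meprins examined beside them, 9 were tested and 0 passed in any comparison, with Adam10 at 146 ± 7.51 and 126 ± 4.33 CPM (-0.21, adjusted p = 0.143) in control and PGR-A OE with no overlap, by edgeR.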

How the data were processed

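The deposited table holds raw counts, as whole numbers, and a length for each gene in 12 libraries of uterine tissue. The submitters' processing notes name the builds GRCm38 and mm10 and the tools STAR 2.7.0f, Bowtie2 2.2.5, Subread 1.6.4, DESeq2 and featureCounts. What each tool did, the annotation and whether counting used strand: not given in the sources used here. Groups and replicate numbers came from the sample titles.

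The test used edgeR 4.0.16 under R 4.3.3, with filterByExpr, TMM scaling and 1 robust quasi-likelihood fit of all 12 libraries, with Benjamini-Hochberg adjustment over 15561 genes. SE is the log2 difference divided by the root of F. The script was tested on simulated data. Alternatives used DESeq2 1.42.0, limma 3.58.1 (voom), other filters and scaling, fewer libraries, and the replicate number as a block. Positions are from GENCODE M21 (GRCm38) by symbol, for all 51 genes, and promoters from RefSeq (GRCm38.p6). No library pair was identical or differed within sampling noise, with a chi-square of at least 20.6 per gene within groups.

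Each detected member could be named with its level. Tests are given for members past the threshold, those with an unadjusted p under 0.05 or with libraries that did not overlap, and Adamts3, Adamts2, Adamts14, Mmp2, Mmp14, Timp1, Timp2 and Timp3. Other tests (Adamts5, Mmp3, Mmp10 and Mmp13, Mmp7 in PGR-A OE and Adamts6 in PGR-B OE against control) were added after their values were seen, as was the promoter pattern. So were, outside the family, those of Col3a1, and of Vegfc and Ccbe1 in PGR-B OE against control. The members and lists were chosen with earlier results of these data known.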

Additional observations from a re-analysis of the deposited data

Results flagged for a closer look

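In 10 of 135 sets of 4 libraries (a tested gene in a group), 1 library lay far from the other 3 by Dixon's criterion, which chance meets in about 1 of 20 sets. Control replicate 4 was the distant library in 5 of them. It held 188 CPM of Adamts5 where the other controls held 37.9 to 39.8 CPM. Mmp12 was at 5.09 CPM in it, against 2.84 to 3.19 CPM. It was low in Adamts12, at 25.9 CPM against 32.6 to 33.8 CPM, in Mmp10, at 3.87 CPM against 19.8 to 22.9 CPM, and in Mmp19, at 45.6 CPM against 66.2 to 66.7 CPM. PGR-A OE replicate 4 was high in Adamts2, at 446 CPM against 318 to 331 CPM, and in Mmp19, at 100 CPM against 51.7 to 58.5 CPM. Control replicate 3 held 129 CPM of Mmp17 where the other controls held 90.7 to 97.0 CPM. PGR-B OE replicate 1 held 410 CPM of Mmp2, against 229 to 253 CPM, and PGR-B OE replicate 3 held 1.58 CPM of Mmp8, against 0.118 to 0.337 CPM.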

How the results depend on the processing

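Of 723 values of single genes under other settings, 670 kept their direction and their side of the threshold, 12 lost and 14 gained a call, and 27 changed sign. The causes of these changes were not tested. DESeq2 called 4, 2 and 4 family members in PGR-A OE and then PGR-B OE against control and between the overexpression groups, and 575, 216 and 125 genes in all, where edgeR called 102, 48 and 18. Of the 575 genes 293 were higher, and of the 102 genes 75. For PGR-B OE against control, limma voom, a fit of the 8 libraries compared and the replicate block each called 0 members. The 8 libraries gave 63 genes for PGR-A OE against control and 10 between the overexpression groups, and a mean of at least 1 CPM gave 6 in the latter. With the replicate number as a block, the counts of all genes were 69, 32 and 11, and the adjusted p of Adamts3 was 0.0955. Same-numbered libraries deviated together with correlations of -0.26 to 0.19, so the numbers are not taken to pair the samples. With both control replicate 4 and PGR-A OE replicate 4 left out, 2 members (Adamts3 and Mmp15) and 91 genes passed in PGR-B OE against control, and 38 genes between the overexpression groups. Leaving out each of the 12 libraries gave 0 to 1, 0 to 2 and 0 to 0 members and 32 to 109, 22 to 100 and 11 to 31 genes in the 3 comparisons.
Timp1 in PGR-B OE against control was -0.074 to 0.11 with a library left out, 0.0002 with DESeq2 size factors, 0.0001 by limma voom and 0.0016 with the block. Adamts3 in PGR-A OE against control was -0.10 to 0.048 with a library left out. Timp1 in PGR-A OE against control was -0.12 to 0.047 with a library left out. Mmp2 between the overexpression groups was -0.26 to 0.077 with a library left out. Timp3 in PGR-A OE against control was -0.024 to 0.13 with a library left out and -0.061 with both libraries left out. Adamts2 between the overexpression groups was -0.18 to 0.0037 with a library left out and 0.0089 with both libraries left out. Adamts14 between the overexpression groups was -0.32 to 0.11 with a library left out and 0.11 with both libraries left out. Timp1 between the overexpression groups was -0.0096 to 0.11 with a library left out. Mmp2 in PGR-B OE against control was -0.023 to 0.30 with a library left out. Adamts14 in PGR-B OE against control was -0.0006 to 0.22 with a library left out. Adamts14 in PGR-A OE against control was -0.018 with both libraries left out. Timp2 in PGR-A OE against control was -0.10 with both libraries left out. Adamts5 in both comparisons with control and Mmp3 in PGR-A OE changed sign without control replicate 4, a check added after their values were seen. None of these passed the test under any setting. The 38 members at a mean of at least 1 CPM became 39 without TMM, and 0 of 135 group means moved by more than 1 SD. With 4 libraries a group, the intervals of genes at a few CPM are too wide to show small differences.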
